A study of Homo sapiens with 6 samples.

Results

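Progress through the G1 phase of the cell cycle is set by cyclin-dependent kinases, the cyclins that activate them and the inhibitors that hold them in check. D-type cyclins pair with CDK4 and CDK6, and E-type cyclins pair with CDK2. Both kinds of complex phosphorylate the retinoblastoma protein RB, which then releases E2F transcription factors that drive S phase genes. INK4 inhibitors such as p15 (CDKN2B) and p18 (CDKN2C) bind CDK4 and CDK6 alone, whereas CIP/KIP inhibitors such as p21 (CDKN1A) and p27 (CDKN1B) bind cyclin-CDK complexes and block CDK2.

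The 10 genes described here are CDKN1A, CDKN1B, CDKN2B, CDKN2C, CCND2, CCND3, CDK2, CDK4, CDK6 and RB1, chosen by name out of 20660 gene names in the authors' deposited table. They hold 41 of its 82428 coding sequences. All rows bearing one of these names were taken, and all 10 genes were found. The cells were FaDu, an established line from a squamous carcinoma of the hypopharynx and thus of the head and neck squamous cell carcinoma (HNSCC) type. They had been treated with BB608, a compound known here only by that code name, or with its vehicle DMSO, and the labels give 3 libraries of each treatment. Both groups are the same unmodified line as far as the labels say, and the sources used here name neither a dose nor a treatment time. The series text calls the replicates biological. The question was how BB608 alters gene expression against DMSO.

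The table gives 1 pooled FPKM value (fragments scaled to transcript length and sequencing depth) per coding sequence and group, with no value per library and no read count, so depth and the spread between libraries are unknown. Errors below are an implied SE, derived from the authors' Cuffdiff statistic and p, and intervals are approximate 95% intervals made from it. A gene sum adds up the FPKM of every coding sequence under 1 gene name, and no error could be derived for it. Epithelial markers were high in both groups, with KRT5 at 2472 FPKM in BB608 and 2334 FPKM in DMSO as gene sums. By contrast, 6 fibroblast markers together gave 0.865 FPKM in BB608 and 1.01 FPKM in DMSO. In the blood and endothelial list CD3E is listed at 0 in both groups, and 2 of 6 genes present were tested, namely CD14 at 2.24 FPKM in BB608 and 2.23 FPKM in DMSO and CDH5 at 4.09 FPKM in BB608 and 3.82 FPKM in DMSO.

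None of the 24 tested member coding sequences reached a Cuffdiff q below 0.05 in the authors' deposited table, in which 122 of 34474 tested coding sequences, or 0.354%, were called. Every one of the 24 had a q of 0.997. At an unadjusted p under 0.05 there were 2 member sequences, which is 8.33% of those tested, against a background of 3.31%. Counted by gene, 2 of the 10 had such a sequence, against 9.68% of all kept genes. With normal p-values computed from the authors' statistic the count of called members was also 0. Their scale was set from the authors' own p, so that count is not a separate test. The 2 sequences belong to the inhibitors p21 and p27, and both were lower in BB608, as were 1.51% of all tested sequences at that p. Among gene sums, 5 of the 10 members were higher in BB608 and 5 were lower, with a median log2 fold of 0.0024. Over 10859 genes kept at 1 FPKM or more in the higher group, 57.6% were higher and the median log2 fold was 0.035. The members ran from -1.30 for CDKN1A to 0.65 for CCND3, and 5 of them lay within 0.25 log2 of 0, as did 70.1% of all kept genes.

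**Figure D1:**
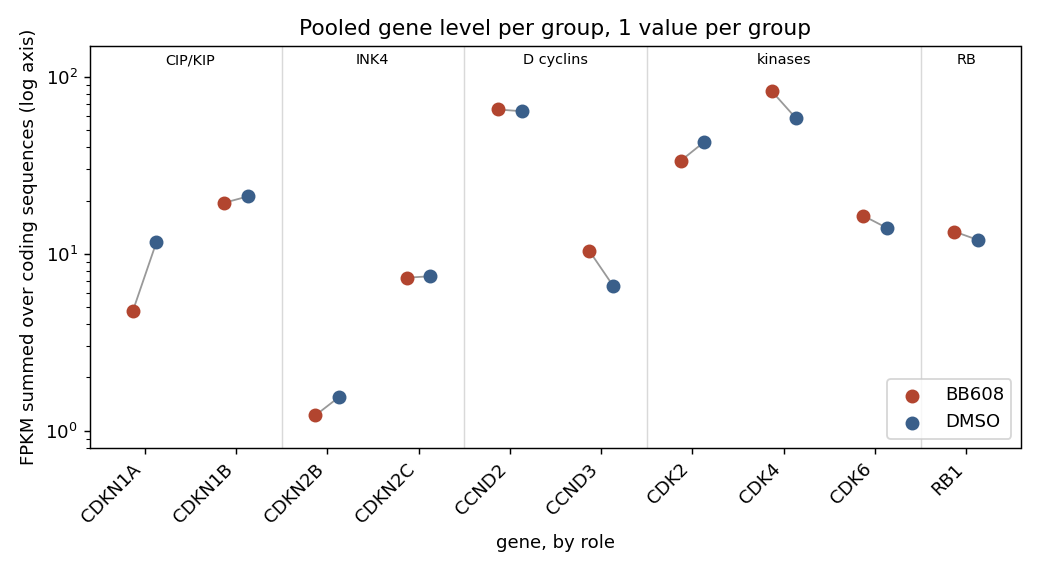
FPKM summed over coding sequences for each of the 10 genes (vertical log axis), in BB608 (red, left of each pair) and DMSO (blue, right of each pair), ordered by role. Each point is the authors' single pooled value, so there are no error bars. CDKN1A stands at 4.73 FPKM in BB608 against 11.7 FPKM in DMSO, while CCND2 has 65.5 FPKM in BB608 and 64.1 FPKM in DMSO.

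Levels in FPKM are per length and can be set beside each other across genes. In BB608 the order of gene sums was CDK4 at 83.1 FPKM, CCND2 at 65.5 FPKM, CDK2 at 33.6 FPKM, CDKN1B at 19.4 FPKM, CDK6 at 16.4 FPKM, RB1 at 13.4 FPKM, CCND3 at 10.4 FPKM, CDKN2C at 7.32 FPKM, CDKN1A at 4.73 FPKM and CDKN2B at 1.22 FPKM. In DMSO it was CCND2 at 64.1 FPKM, CDK4 at 58.8 FPKM, CDK2 at 43.0 FPKM, CDKN1B at 21.1 FPKM, CDK6 at 14.0 FPKM, RB1 at 12.0 FPKM, CDKN1A at 11.7 FPKM, CDKN2C at 7.47 FPKM, CCND3 at 6.60 FPKM and CDKN2B at 1.55 FPKM. CDK4, CCND2 and CDK2 were thus the most abundant members and CDKN2B the least in both groups. With 1 pooled value a group, no pair of neighbours in either order could be tested for a difference.

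CDKN1A encodes p21, a CDK inhibitor induced by stress and growth arrest signals. In the authors' deposited table it stood at 4.73 FPKM in BB608 against 11.7 FPKM in DMSO, which is a log2 fold of -1.30 with an implied SE of 0.56. The unadjusted p was 0.0286 and the Cuffdiff q 0.997, so the difference did not pass the test. Its interval ran from -2.40 to -0.21, which spans a wide range of sizes below 0. Of the 10859 kept genes, 81, or 0.746%, had a gene sum fold this low or lower, CDKN1A included. Its level ranked above 27.3% of kept genes in BB608 and above 50.2% in DMSO. In these bulk samples less RNA per cell and fewer cells holding the RNA cannot be told apart.

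All of the CDKN1A signal came from coding sequence P67476, since the other, P67477, was not tested and stood at 3.35e-50 FPKM in BB608 and 3.56e-33 FPKM in DMSO. The locus that Cufflinks formed around it covers chromosome 6 from 36555310 to 36932613 of hg19 and holds 6 other genes. The most abundant of them, the splicing factor gene SRSF3, had a gene sum of 78.9 FPKM in BB608 and 98.0 FPKM in DMSO, a log2 fold of -0.31. Those of PPIL1 and C6orf89 had -0.10 and -0.19. These 3 genes had no coding sequence called by Cuffdiff's q, nor one with an unadjusted p under 0.05, and the other 3 at the locus had no tested coding sequence.

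CDKN1B encodes p27, a CDK inhibitor whose amount is largely set by protein turnover. Its gene sum was 19.4 FPKM in BB608 and 21.1 FPKM in DMSO, a log2 fold of -0.12. Its 3 tested coding sequences, all at one locus on chromosome 12 from 12867991 to 12875776 of hg19, differed in direction. In the authors' deposited table P15349 stood at 2.80 FPKM in BB608 and 7.35 FPKM in DMSO. Its log2 fold was -1.39 with an implied SE of 0.57 (unadjusted p 0.0301, q 0.997). P15350 stood at 7.33 FPKM in BB608 and 4.84 FPKM in DMSO, with a log2 fold of 0.60 (implied SE 0.40; p 0.139). P15351, the most abundant, had 9.30 FPKM in BB608 and 8.92 FPKM in DMSO, a log2 fold of 0.06 with an interval from -0.21 to 0.33.

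The division of CDKN1B therefore differed more than its sum. P15349 held 14.4% of the gene sum in BB608 and 34.8% in DMSO, whereas P15350 held 37.7% in BB608 and 22.9% in DMSO. The share of P15351 was 47.9% in BB608 and 42.3% in DMSO. These shares have no error of their own, and the files do not say which protein each identifier stands for. Cufflinks assigns reads among overlapping coding sequences by estimation, and its part in these shares was not tested.

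**Figure D2:**
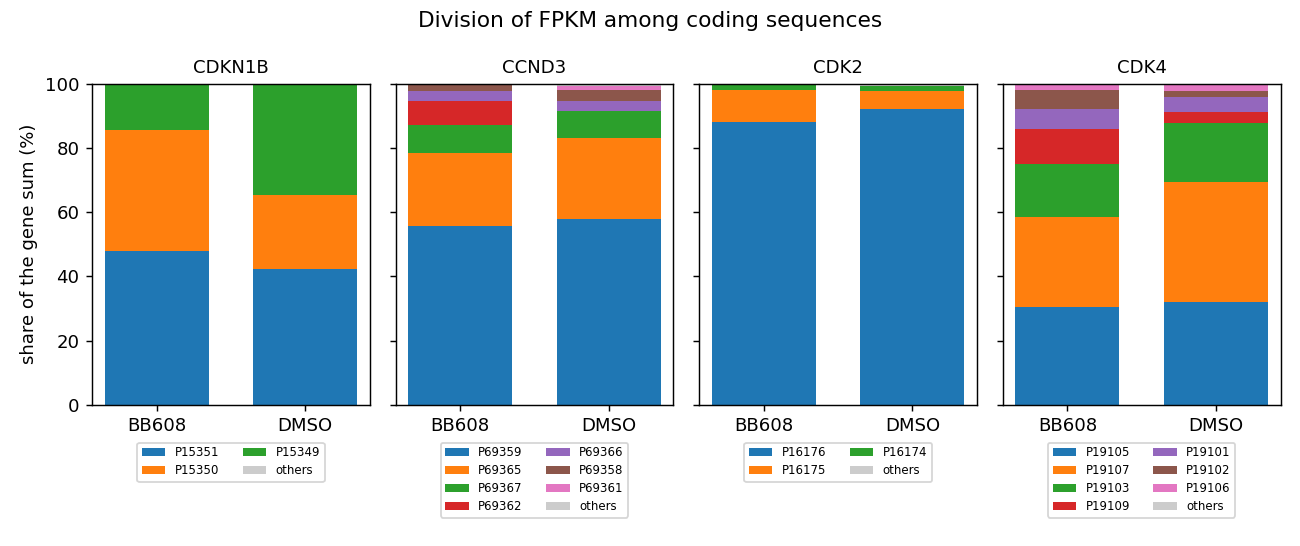
Share of each gene's summed FPKM (vertical axis, percent) held by its coding sequences in BB608 (left bar) and DMSO (right bar), for the 4 member genes with 3 or more coding sequences. Colours are coding sequences with at least 1% in either group and grey is the rest. In CDKN1B the green P15349 takes 14.4% in BB608 and 34.8% in DMSO, and in CDK2 a single sequence holds most of the sum in both groups.

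Put together per length, the CIP/KIP genes CDKN1A, CDKN1B and CDKN1C summed to 24.9 FPKM in BB608 and 34.0 FPKM in DMSO, a log2 fold of -0.45. CDKN1A made up 19.0% of that sum in BB608 and 34.3% in DMSO, and CDKN1B 78.1% in BB608 and 62.1% in DMSO. CDKN1C encodes p57 and is not one of the 10. Its gene sum was 0.719 FPKM in BB608 and 1.21 FPKM in DMSO. In the authors' deposited table its only tested coding sequence had a log2 fold of -1.01, at p 0.0461 and q 0.997 (implied SE 0.45). All 3 CIP/KIP gene sums were thus lower in BB608, as were 4606 of 10859 kept genes. By its most abundant sequence, however, CDKN1B had a log2 fold of 0.06. None of the 3 genes had a sequence that passed Cuffdiff's q, against 1.1% of all kept genes with one.

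Of the INK4 members, CDKN2B had the lower level, above 4.46% of kept genes in BB608 and 8.14% in DMSO. CDKN2C ranked above 37.4% of kept genes in BB608 and 38.8% in DMSO. CDKN2B, which encodes p15, a TGF-beta-responsive inhibitor, had a gene sum of 1.22 FPKM in BB608 and 1.55 FPKM in DMSO. Its tested coding sequence had a log2 fold of -0.31 with an interval from -1.45 to 0.84, so a large difference either way was within its error. It shares a locus on chromosome 9, from 21802541 to 22121096 of hg19, with 4 other genes, among them CDKN2A and MTAP. CDKN2C, which encodes p18, was measured more precisely through a single coding sequence. It had 7.32 FPKM in BB608 and 7.47 FPKM in DMSO, a log2 fold of -0.03 with an interval from -0.29 to 0.24.

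Outside the members, the INK4 genes CDKN2A and CDKN2D had gene sums of 11.6 and 3.43 FPKM in BB608 and 9.74 and 3.70 FPKM in DMSO. Of the 4 INK4 genes, only CDKN2A was higher in BB608 as a gene sum. Its most abundant coding sequence had a log2 fold of -0.33 (implied SE 0.96). The 4 INK4 genes summed to 23.5 FPKM in BB608 and 22.4 FPKM in DMSO, a log2 fold of 0.07, beside -0.45 for the 3 CIP/KIP genes. The difference between these 2 sums could not be tested with 1 value a group.

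CCND2, which encodes cyclin D2, stood at 65.5 FPKM in BB608 and 64.1 FPKM in DMSO as a gene sum. Its main coding sequence P15075 had a log2 fold of 0.11 with the smallest error among the members (implied SE 0.09) and an interval from -0.07 to 0.29. The other, P15076, had 0.0852 FPKM in BB608 and 3.45 FPKM in DMSO, but its log2 fold of -5.34 had an implied SE of 8.28 and a p of 0.412 in the authors' deposited table. Its share of the gene sum was 0.130% in BB608 and 5.38% in DMSO, so that the gene sum had a lower fold, at 0.03, than the main sequence.

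CCND3, which encodes cyclin D3, had the highest gene sum fold of the 10, with 10.4 FPKM in BB608 and 6.60 FPKM in DMSO, a log2 fold of 0.65. Of the kept genes, 95.9% had a fold this low or lower. All 4 of its tested coding sequences were higher in BB608, as were 18734 of all 34474 tested. None of the 4 passed Cuffdiff's q or had an unadjusted p under 0.05. The most abundant, P69359, had 5.79 FPKM in BB608 and 3.82 FPKM in DMSO, a log2 fold of 0.60 with an interval from -0.83 to 2.03. P69365 had 2.37 FPKM in BB608 and 1.66 FPKM in DMSO, a log2 fold of 0.51 with an interval from -0.23 to 1.26. Another sequence, P69362, had 0.762 FPKM in BB608 and 4.35e-06 FPKM in DMSO with a p of 0.268, and no usable error could be derived for it. The sequences of one gene share reads, so their common direction is not a count of separate measurements.

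Cyclin D1, encoded by CCND1, was the most abundant D-type cyclin at 132 FPKM in BB608 and 126 FPKM in DMSO. The 3 D-type cyclins summed to 208 FPKM in BB608 and 197 FPKM in DMSO, a log2 fold of 0.08. CCND2 made up 31.5% of the sum in BB608 and 32.5% in DMSO, and CCND3 4.99% in BB608 and 3.35% in DMSO. CCND3, with the highest fold of the 3 as a gene sum, was thus the smallest part of the D-type cyclin RNA in both groups.

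Of the kinases, CDK4, a partner of D-type cyclins, was higher in BB608 as a gene sum, at 83.1 FPKM against 58.8 FPKM in DMSO, a log2 fold of 0.50. It had 12 coding sequences, 7 of them tested. All 7 were higher in BB608, with Cuffdiff p-values from 0.357 to 0.849, as were 18734 of all 34474 tested. These sequences also share reads, so their common direction is not 7 separate measurements. The 3 most abundant were also the most precise. P19105 had 25.4 FPKM in BB608 and 18.8 FPKM in DMSO, a log2 fold of 0.43 (implied SE 0.49). P19107 had 23.3 FPKM in BB608 and 22.0 FPKM in DMSO, a log2 fold of 0.08 (implied SE 0.42), and P19103 had 13.8 FPKM in BB608 and 10.8 FPKM in DMSO, a log2 fold of 0.36 (implied SE 0.69).

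These 3 CDK4 sequences summed to 62.4 FPKM in BB608 and 51.6 FPKM in DMSO, a log2 fold of 0.27. The remaining sequences summed to 20.7 FPKM in BB608 and 7.17 FPKM in DMSO and accounted for 55.6% of the difference in the gene sum. Each of the 4 tested among them had an implied SE over 1 log2. P19109 was the most abundant of these, with 8.97 FPKM in BB608 and 2.05 FPKM in DMSO, a log2 fold of 2.13 (implied SE 3.56). The higher CDK4 sum thus rested in larger part on sequences with little precision. The locus on chromosome 12, from 58117571 to 58154190 of hg19, also holds TSPAN31, a tetraspanin gene, at 26.2 FPKM in BB608 and 25.2 FPKM in DMSO, a log2 fold of 0.06.

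CDK6, the other partner of D-type cyclins, had 1 coding sequence with 16.4 FPKM in BB608 and 14.0 FPKM in DMSO. Its log2 fold was 0.23 (implied SE 0.16; p 0.144) with an interval from -0.09 to 0.55. CDK4 and CDK6 together summed to 99.5 FPKM in BB608 and 72.8 FPKM in DMSO, of which CDK6 was 16.5% in BB608 and 19.2% in DMSO.

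CDK2, the partner of E-type cyclins, was the kinase that was lower in BB608, with a gene sum of 33.6 FPKM against 43.0 FPKM in DMSO, a log2 fold of -0.36. Its main coding sequence P16176 had 29.6 FPKM in BB608 and 39.5 FPKM in DMSO, a log2 fold of -0.42 with an interval from -0.94 to 0.11 (p 0.121, q 0.997) in the authors' deposited table. That sequence held 88.1% of the sum in BB608 and 92.0% in DMSO. P16175, the next, had 3.31 FPKM in BB608 and 2.53 FPKM in DMSO, a log2 fold of 0.39 (implied SE 0.74). The E-type cyclins CCNE1 and CCNE2, with which CDK2 pairs, summed to 14.8 FPKM in BB608 and 15.4 FPKM in DMSO. Their gene sums differed in direction, with log2 folds of 0.27 for CCNE1 and -0.34 for CCNE2. The most abundant sequence of CCNE1 had -0.61 (implied SE 0.30; Cuffdiff p 0.0578, q 0.997). That of CCNE2 had -1.32 (implied SE 1.37; Cuffdiff p 0.367, q 0.997).

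RB1, the substrate of these kinases, had a gene sum of 13.4 FPKM in BB608 and 12.0 FPKM in DMSO, a log2 fold of 0.16. Its tested coding sequence P20412 had 12.8 FPKM in BB608 and 12.0 FPKM in DMSO, a log2 fold of 0.10 with an interval from -0.11 to 0.31. The other sequence, P20413, was not tested by the authors and had 0.524 FPKM in BB608 and 0.00831 FPKM in DMSO, which is 3.92% of the sum in BB608 and 0.0695% in DMSO. The gene sums of RB1 and its relatives RBL1 and RBL2 added up to 48.2 FPKM in BB608 and 44.9 FPKM in DMSO.

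**Figure D3:**
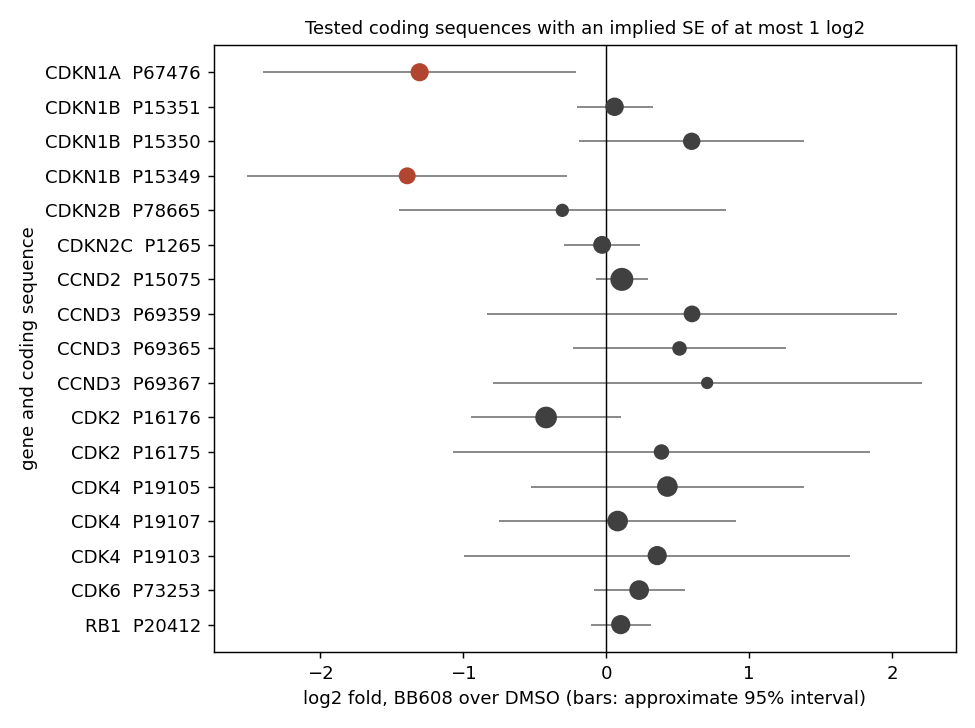
Log2 fold of BB608 over DMSO (horizontal axis) for the tested member coding sequences with an implied SE of at most 1 log2, 1 row each. Bars are approximate 95% intervals, point area grows with mean FPKM, and red marks an unadjusted p under 0.05. The intervals of CDKN1A P67476 and CDKN1B P15349 lie below 0, and every other interval shown crosses it.

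Precision differed strongly among the members. In 5 sequences the implied SE was under 0.25 log2, namely the main ones of CCND2, RB1, CDKN2C, CDKN1B and CDK6. Their intervals lay between -0.29 and 0.55, so a change of 1 log2 in either direction was outside each of them. In 6 tested sequences of CCND2, CDK2 and CDK4 the implied SE was over 1 log2, and for these the test sets little bound on the size of a change. The median implied SE was 0.57 over the 23 member sequences that had one and 0.68 over all 33138.

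**Figure D4:**
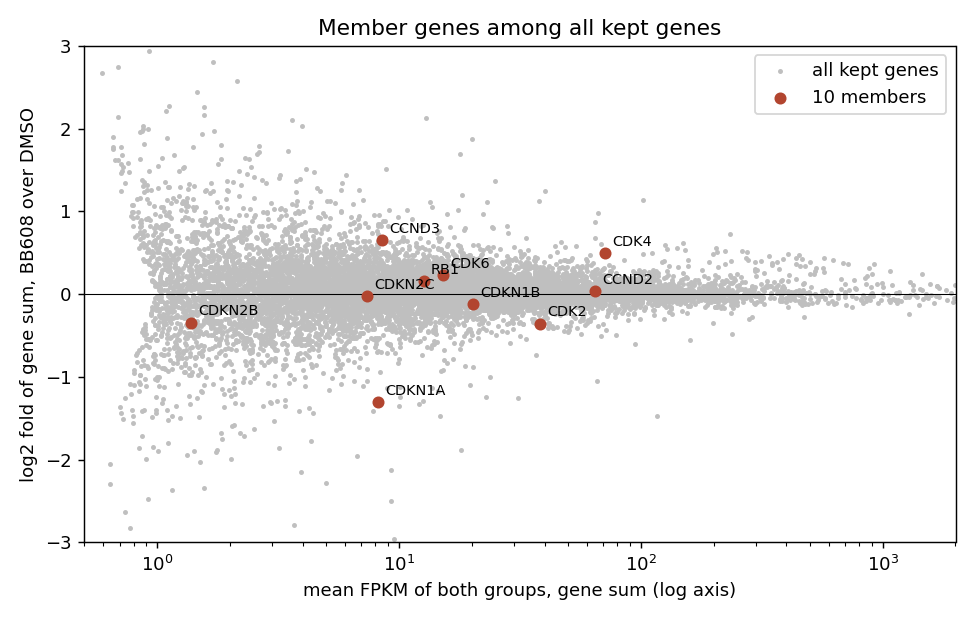
Log2 fold of gene sums, BB608 over DMSO (vertical axis), against mean FPKM of both groups (horizontal log axis) for kept genes (grey) and the 10 members (red). The vertical axis stops at 3 log2 in either direction, beyond which 29 of 10859 genes lie. The horizontal axis is also cut, and 18 genes lie outside it. CDKN1A, at -1.30, sits below most genes of its level, and the other 9 members lie between -0.36 and 0.65.

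Other genes of the pathway were taken from lists. Of 13 other G1 cyclins, CDK regulators and inhibitors, all tested, none had a coding sequence called by Cuffdiff's q, against 1.1% of all kept genes, and 2 had one with an unadjusted p under 0.05, against 9.68% of all kept genes. These were CDKN1C, given above, and CDK7, the catalytic subunit of the CDK-activating kinase, both singled out after their values were seen. The CDK7 sequence had 21.1 FPKM in BB608 and 30.2 FPKM in DMSO, which is -0.52 on the log2 scale with an implied SE of 0.19 (p 0.01055, q 0.900) in the authors' deposited table, and the CDK7 gene sum had -0.23. The list's median log2 fold was 0.05 by gene sums, with 7 genes higher and 6 lower in BB608, but -0.18 by the main coding sequence of each gene, the one with the highest FPKM.

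No gene among 17 of the RB family, E2F and DP factors had a call by Cuffdiff's q, against 1.1% of all kept genes. None had a sequence at an unadjusted p under 0.05, against 9.68% of all kept genes. The median log2 fold of their gene sums was 0.07. E2F1, an activator of S phase genes, had 13.5 FPKM in BB608 and 13.4 FPKM in DMSO. Of 16 tested S phase genes driven by E2F, none was called by Cuffdiff's q, against 1.1% of all kept genes. A sequence at an unadjusted p under 0.05 was found in 1 gene, against 9.68% of all kept genes. The gene was CDT1, a replication licensing factor named after its value was seen. Its sequence had a log2 fold of 0.53 with an implied SE of 0.17 (p 0.00875, q 0.833). The median of the list was 0.07, beside 0.035 for all kept genes.

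In the list for p27 and cyclin turnover, Cuffdiff's q called none of 13 tested genes, against 1.1% of all kept genes. None had a sequence at an unadjusted p under 0.05, against 9.68% of all kept genes. The median log2 fold was -0.03, with 4 genes higher and 9 lower in BB608 by gene sums. SKP2, the F-box protein that targets p27, had a gene sum of 58.4 FPKM in BB608 and 54.7 FPKM in DMSO. Its cofactor CKS1B had 154 FPKM in BB608 and 151 FPKM in DMSO.

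Of 18 transcription factors known to act on CDK inhibitor genes, 15 were tested. None was called by Cuffdiff's q, against 1.1% of all kept genes, and 2 had a sequence at an unadjusted p under 0.05, against 9.68%. These were EGR1 and ZBTB17, both named after their values were seen. EGR1, an immediate-early factor, had 15.4 FPKM in BB608 and 19.8 FPKM in DMSO, a log2 fold of -0.37 (implied SE 0.10) with a q of 0.0539, just past the threshold. ZBTB17 encodes MIZ1, which acts on the CDKN1A and CDKN2B promoters. Its sequence stood 0.72 log2 higher in BB608, with an implied SE of 0.31 and a p of 0.0215, and its gene sum had 0.21. KLF4 and KLF6 had the lowest gene sum folds among the kept genes of this list. Their gene sums were 1.20 and 3.12 FPKM in BB608 and 3.00 and 5.10 FPKM in DMSO. KLF4's only tested sequence had a Cuffdiff p of 0.218 with an implied SE of 1.12. The lowest Cuffdiff p among the sequences of KLF6 was 0.0743. By gene sums the list had 9 genes higher and 6 lower in BB608, with a median log2 fold of 0.07. SMAD4, the shared partner of TGF-beta-activated SMADs that act on CDKN2B, had a gene sum of 1.79e-10 FPKM in BB608 and 1.89e-10 FPKM in DMSO and was not tested.

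**Figure D5:**
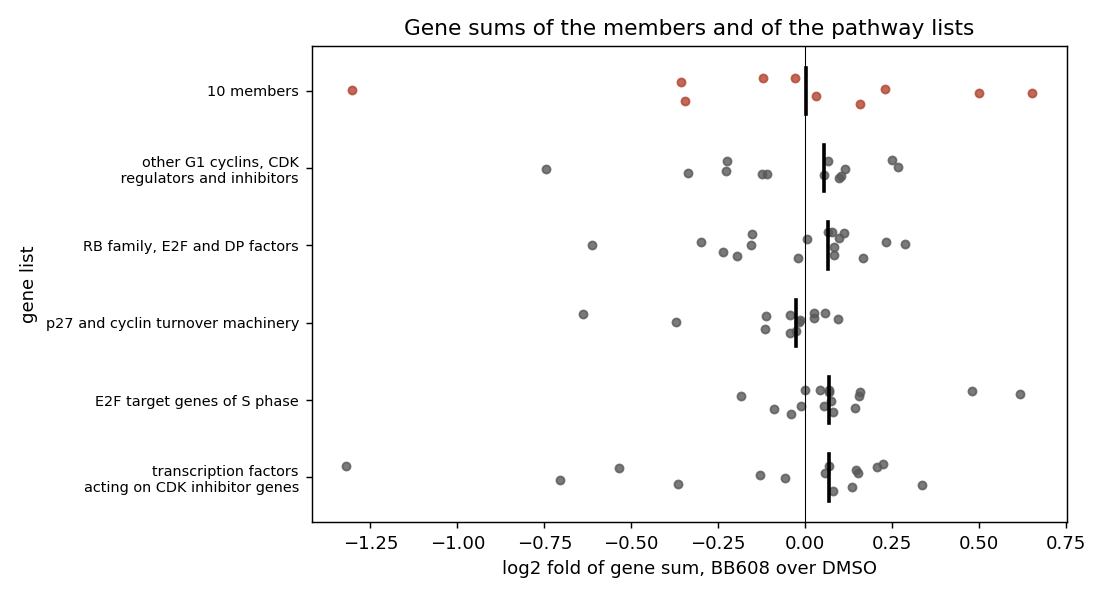
Log2 fold of gene sums, BB608 over DMSO (horizontal axis), for the 10 members (top row, red) and the kept genes of 5 pathway lists (grey), with a black bar at each median. Vertical scatter within a row is only for legibility. CDKN1A is the leftmost member at -1.30, and the list medians lie between -0.03 and 0.07.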

How the data were processed

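Total RNA of FaDu cells was sequenced with a stranded kit after depletion of ribosomal RNA, as the labels' protocols state. Per the submitters' processing notes, TopHat2 2.0.11, Cufflinks 2.2.1, Cuffdiff and build hg19 were used. Neither the gene annotation nor the strand setting is stated. The authors' deposited table holds 1 FPKM value per coding sequence and group, a statistic and log2 fold treated as a score, and a p-value and q-value over tested rows. Depth per sample is unknown.

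No count or limma test was possible without values per library, so the authors' q under 0.05 was the call. The normal quantile of the authors' p over the absolute statistic had a median of 1.73 in 33027 rows, with quartiles of 1.64 and 1.78. The log2 fold over the statistic and over that median is the implied SE, given where both values were at least 0.001 FPKM. It holds no more than the spread in the authors' model. The same median served all rows, so an interval can be narrower or wider than a row's own p would give. For CDKN1A P67476 and CDKN1B P15349 it was narrower. FPKM values were summed per gene. Genes were kept with a tested sequence, no failed row, a single name and 1 FPKM or more in either group.

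All members are named, with the sequences at 1 FPKM or more or at p under 0.05 the main ones described. The rule for list genes was to name those called by Cuffdiff's q, but no list gene named here was called. Those named were chosen outside that rule, some after their values were seen. The members and lists were chosen with earlier results of these data known. Python 3.11.15, NumPy 2.4.6, pandas 2.3.3 and SciPy 1.17.1 were used, and the calculations were tested on simulated data. The simulation drew its errors from the implied SE itself, so how well that SE fits the real data was not tested. Alternatives were filters at a mean of 1 and 5 FPKM, a bound of 1 log2, an unadjusted p, a pseudocount of 1 FPKM, 2 scalings and other choices of coding sequence. A result and a gene list tied to it are not reported here.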

Additional observations from a re-analysis of the deposited data

How the results depend on the processing

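No paired analysis was possible because libraries were pooled into 1 value for each treatment, and leaving out a replicate was not run for the same reason. The alternatives with normal p-values and with precise sequences were chosen after seeing the data. The 122 calls became 1140 at an unadjusted p under 0.05 and 40 with a bound of 1 log2, both by construction, and 121, 83 and 157 with the filters at 1 and 5 FPKM and with normal p-values. Called members numbered 2 at an unadjusted p under 0.05 and 0 under the other 4 settings. Of 70 settings over member folds, 69 stayed within 1 implied SE. Many sums equal their main sequence, which fixes part of that count. CDKN1B went to 0.06 by its most abundant sequence, because its sequences differ in direction. CCND2 went to -0.0024 after scaling by the median, so 4 of 10 members were then higher. CDK4 ran from 0.08 by its most abundant sequence to 0.50, and CDKN1A from -1.34 with quantile normalization to -1.15 with a pseudocount. The most abundant sequence moved the medians of the other G1 regulators to -0.18 and of 2 blood and endothelial genes to -0.35.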
